A study of Zea mays with 12 samples.

Results

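In 5DAP maize, 96 of 34423 genes were lower in the ear leaf and higher in the kernel under drought stress. They were chosen on their own measured levels, as CPM (the estimated read count of a gene divided by the sum of its library and scaled to counts per 1000000, with 0 where a gene was not listed). A gene was taken when its lower control leaf library held at least 5 CPM and at least 2 times its higher drought leaf library, and when its lower drought kernel library held at least 5 CPM and at least 2 times its higher control kernel library. The leaf and kernel differences are therefore the choice itself and are described here without a test. The ear levels took no part in the choice and were tested, with a spread per gene estimated over all 12 libraries. RNA was sequenced from the inbred line B104 grown in the field, in 6 groups of 2 libraries. The young ear was taken at the V9 stage, when the ear primordium is forming, and the ear leaf and the kernel were taken at 5 days after pollination (5DAP). Each organ came from watered control plants and from plants kept in dry soil for 5 days before sampling, with the ear stressed at V9 and the leaf and kernel stressed after pollination. No transgene or mutant is part of the design, and each library pools organs of several plants.

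The ear leaf is the source organ next to the growing ear: its chloroplasts harvest light with the protein complexes of photosystem II and photosystem I, pass electrons through carriers such as ferredoxin, and make sugar that is exported. The kernel at 5DAP is a sink, in which the endosperm is being formed inside maternal tissue and most carbon is imported as sucrose. Most subunits of the photosynthetic complexes are encoded in the nucleus, and drought is known to lower their transcripts in leaves as carbon assimilation declines.

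The deposited counts summed to 3429219 to 5452598 per library, so that 3 counts corresponded to 0.550 to 0.875 CPM. Over all genes with 20 counts or more, replicates differed with a chi-square of 3.98 per gene in the control leaf and 3.04 in the control kernel, and 1.27 to 1.37 in the other 4 groups. Over the members it was 1.46 in the control leaf and 1.99 in the control kernel, where the choice itself favours genes whose replicates agree. The edgeR p-values below compare 2 ear libraries per group. Their spread per gene was estimated over the replicate pools of all 6 groups together, leaf and kernel included, with 6 residual degrees of freedom. It was also moderated with information from the other genes. These p-values therefore do not measure the spread between ear pools alone. The organ labels were checked against marker genes. The 6 leaf markers of C4 photosynthesis, among them pep1, me3 and pdk1, summed to 45709 and 45435 CPM in the control leaf and to 118 to 286 CPM in the control ear and kernel. The ear held 318 and 319 CPM of the meristem gene kn1, against 2.20 and 2.62 CPM in the control leaf. Of the 5 endosperm markers, 1 set the kernel apart: mn1, the invertase of the kernel base, had 94.8 and 79.7 CPM in the control kernel and at most 0.583 CPM in the control ear and leaf. The other 4 did not, since bt2 was lower in the control kernel (27.2 and 29.0 CPM) than in the control ear (35.2 and 36.8 CPM) and leaf (34.8 and 35.5 CPM), sh2 had 2.67 and 3.99 CPM beside 3.396 and 3.45 CPM in the ear, bt1 was at 0 in the control kernel, and GRMZM2G111306 was listed in no library.

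The members were mostly abundant leaf transcripts that were scarce in the watered kernel. Their median was 142 CPM in the control leaf, 38.8 CPM in the drought leaf, 6.37 CPM in the control kernel and 26.0 CPM in the drought kernel. Per length, the median member had 84.7 FPKM (fragments per kilobase of transcript and 1000000 mapped reads) in the control leaf, 28.9 in the drought leaf, 5.34 in the control kernel and 19.995 in the drought kernel. The median member stood at the 93.1 percentile of control leaf CPM among genes with at least 5 CPM there. The highest of the 6 group means in CPM was that of the control leaf for 78 members, of the drought kernel for 15 and of the drought ear for 3. These and all later comparisons of level between organs use CPM not divided by the TMM factors described below. The factors ranged from 0.652 in a control leaf library to 1.25 in a drought ear library. Division by them would raise the control leaf relative to the ear and kernel, and the organ comparisons were not repeated with it. Member transcripts had a median length of 1417 bases, against 1628 bases over the 23668 genes that reached 5 CPM in some library.

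As ratios of group means, the leaf level was 2.06 to 22.0 times lower under drought, with a median of 2.84, and the kernel level was 2.10 to 513 times higher, with a median of 3.35. In the leaf, 44 members were at least 3 times lower and 14 at least 5 times lower. In the kernel, 57 members were at least 3 times higher, 29 at least 5 times and 13 at least 10 times. The background of the choice was 1302 of 14885 genes (8.75%) that met the leaf condition, 2279 of 17692 (12.9%) that met the kernel condition and 96 of 13164 (0.729%) that met both, counted among genes with the 5 CPM each condition requires. Without the fold limit, both drought libraries lay below both control libraries in the leaf for 23.8% of the genes that reached 5 CPM, and above them in the kernel for 32.1%. The scale moved slightly over the genes that reached 5 CPM. Their median log2 ratio of drought to control CPM, each with 1 CPM added, was 0.22 in the leaf and -0.18 in the kernel. That of the members was -1.46 in the leaf and 1.62 in the kernel, with signs that the choice fixed in advance. When the CPM were divided by TMM factors (edgeR's correction for composition, 0.652 to 0.681 in the control leaf, 0.830 to 0.838 in the drought leaf, 1.17 to 1.20 in the control kernel and 1.03 to 1.04 in the drought kernel), the same rule took 193 genes, with all 96 members among them.

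The members summed to 47753 and 47244 CPM in the control leaf and to 16116 and 16006 CPM in the drought leaf. In the kernel their sum went from 1843 and 1715 CPM to 7319 and 7227 CPM. The kernel gain was thus smaller than the leaf loss in absolute level, and the drought kernel still held less of these transcripts than the drought leaf. The summed C4 leaf markers, none of them a member, summed to 282 and 286 CPM in the control kernel and to 204 and 219 CPM in the drought kernel. The largest part of this difference lay in the Rubisco small subunit gene GRMZM2G098520, with 93.5 and 92.8 CPM against 45.9 and 56.6 CPM. Also lower were GRMZM2G113033 (48.7 and 48.5 CPM against 32.2 and 33.3 CPM), GRMZM2G121878 (19.8 and 22.6 CPM against 8.66 and 9.21 CPM) and pdk1 (74.3 and 73.4 CPM against 69.5 and 65.2 CPM). The means of pep1 (36.0 and 36.4 CPM against 35.4 and 41.1 CPM) and me3 (10.1 and 12.02 CPM against 12.1 and 14.1 CPM) were not lower. In the drought leaf the same markers summed to 9686 and 9605 CPM. In bulk organs, fewer cells of a type and less RNA per cell cannot be told apart. The sum of the 5 endosperm markers went from 125 and 113 CPM to 33.6 and 32.0 CPM in the kernel beside the members' increase. Of these markers, mn1 went from 94.8 and 79.7 CPM to 18.1 and 14.5 CPM. The drought sum also held 14.4 and 14.4 CPM of bt2, which did not set the kernel apart. The part of this decrease in the members' values was not tested.

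**Figure D1:**
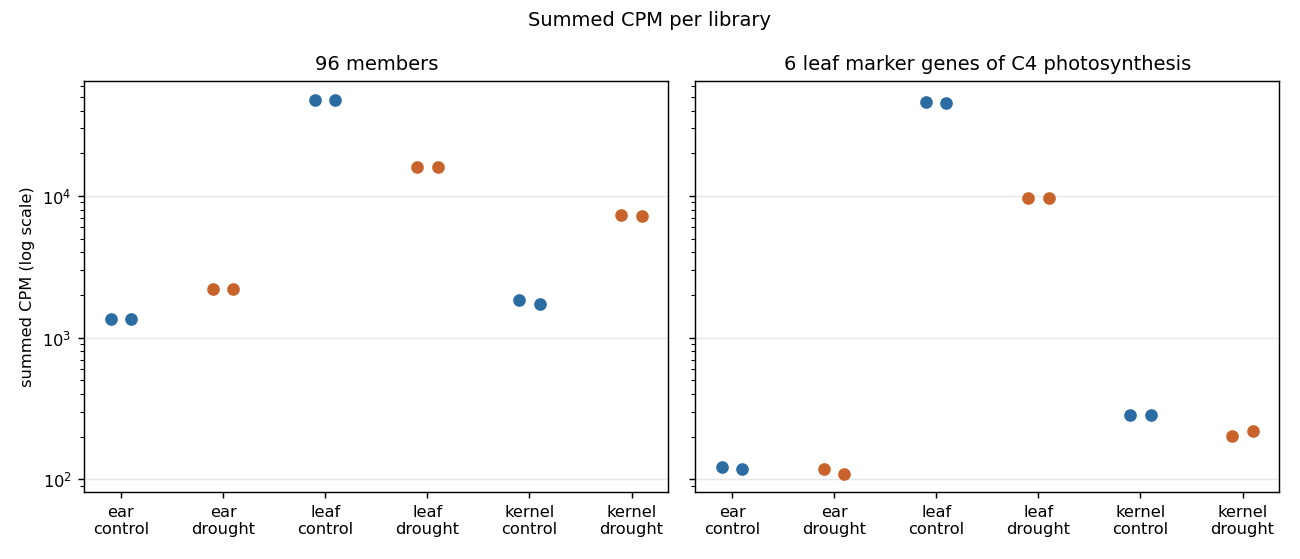
Summed CPM on a log axis for each of the 12 libraries, with blue points for control and orange points for drought. The left panel holds the 96 members, which reach 7319 and 7227 CPM in the drought kernel against 1843 and 1715 CPM in the control kernel, and the right panel holds 6 C4 leaf markers, whose sum is lower in the drought kernel than in the control kernel.

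The leaf preference of the members narrowed under drought, as the choice requires. In control plants the leaf mean was a median of 24.6 times the kernel mean, from 0.666 to 371 times, and 64 members were at least 10 times higher in the leaf. Under drought the median ratio was 1.55, from 0.0358 to 12.6, and 58 members were still higher in the leaf than in the kernel. The drought kernel reached a median of 21.3% of the control leaf level, from 2.47% for GRMZM2G046284 to 658% for GRMZM2G134264, and 16 members exceeded the control leaf. Only 5 members were lower in the control leaf than in the control kernel. These percentages and counts hold for CPM not divided by the TMM factors.

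**Figure D2:**
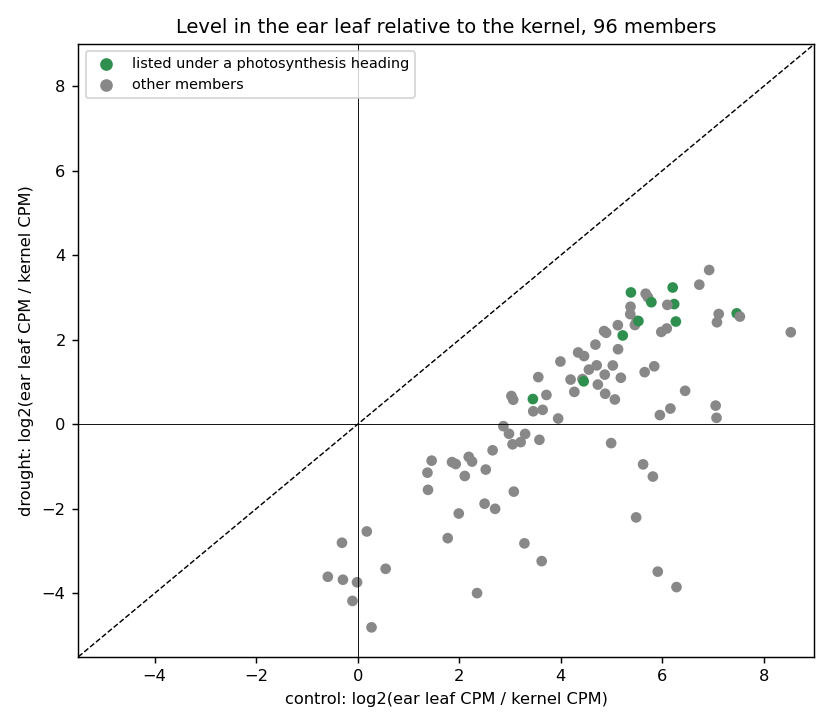
Each point is a member, with the log2 ratio of mean ear leaf CPM to mean kernel CPM in control plants on the horizontal axis and the same ratio in drought plants on the vertical axis. All 96 points lie below the dashed line of equal ratios, as the choice requires, and the 10 photosynthesis members in green remain above 0 on both axes.

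Of the 96 members, 72 were matched to a gene of the RefSeq annotation of the B73 assembly Zm-B73-REFERENCE-NAM-5.0, most of them without a functional name, and 18 are annotated in the gene tables of the study through Arabidopsis homologs. The largest annotated set was photosynthesis, with 10 members. Photosystem I contributed homologs of PSAF, the subunit at which plastocyanin docks, PSAG, PSAN and the antenna protein LHCA4. Photosystem II contributed homologs of PSBO2, which stabilises the water-splitting manganese cluster, PSBY, a small membrane subunit, and PSB27, an assembly and repair factor. The remaining photosynthesis members were a homolog of FD2 (the maize gene fdx2), the ferredoxin that receives electrons from photosystem I, another ferredoxin-like gene, and a homolog of ATPD, the delta subunit of the chloroplast ATP synthase.

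The PSBO2 homolog GRMZM2G175562 was the most abundant of these in the leaf. It had 3765 and 3701 CPM in the control leaf and 1288 and 1281 CPM under drought, against 80.8 and 80.5 CPM in the control kernel and 239 and 233 CPM in the drought kernel. The PSAF homolog GRMZM2G017290 went from 1980 and 1943 CPM to 857 and 867 CPM in the leaf and from 28.8 and 22.1 CPM to 157 and 162 CPM in the kernel. Both genes therefore kept their organ order, leaf above kernel, in each treatment. GRMZM2G329047, the PSAG homolog, had the largest kernel ratio of the set, 10.8 times, with 4.40 and 4.78 CPM in the control kernel and 47.8 and 51.3 CPM under drought. Its leaf libraries held 822 and 804 CPM in controls and 306 and 305 CPM under drought.

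The LHCA4 homolog GRMZM2G153184 changed least in the kernel, where 48.3 and 47.4 CPM in controls stood against 108 and 109 CPM under drought. In the leaf it had 2014 and 1985 CPM in controls and 962 and 927 CPM under drought. It was the only one of 19 listed antenna genes among the members. GRMZM2G009048, the PSAN homolog, had 2.39 and 3.24 CPM in the control kernel and 13.5 and 13.6 CPM in the drought kernel, with 209 and 216 CPM in the control leaf and 98.8 and 95.9 CPM in the drought leaf. The PSBY homolog GRMZM2G308944 showed the widest replicate spread in the control kernel, 18.4 and 10.7 CPM, below 41.1 and 42.9 CPM under drought. Its leaf values were 812 and 795 CPM against 313 and 310 CPM. Among the less abundant genes, the PSB27 homolog GRMZM2G005984 had 8.22 and 6.96 CPM in the control kernel and 26.1 and 25.7 CPM in the drought kernel.

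GRMZM2G048313 (fdx2) had 626 and 605 CPM in the control leaf, 207 and 219 CPM in the drought leaf, 8.68 and 7.97 CPM in the control kernel and 26.0 and 19.2 CPM in the drought kernel. The ferredoxin-like GRMZM2G359127 was an order of magnitude lower in the leaf, with 64.0 and 56.9 CPM in controls and 20.7 and 22.2 CPM under drought, and had 6.09 and 4.95 CPM against 15.0 and 13.4 CPM in the kernel. GRMZM2G401040, the ATPD homolog, had 5.71 and 7.04 CPM in the control kernel and 25.6 and 26.5 CPM in the drought kernel. Over all 10 photosynthesis members, the drought kernel reached 3.67% (GRMZM2G048313) to 23.4% (GRMZM2G359127) of the control leaf level, so none of them approached its leaf level in the kernel.

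**Figure D3:**
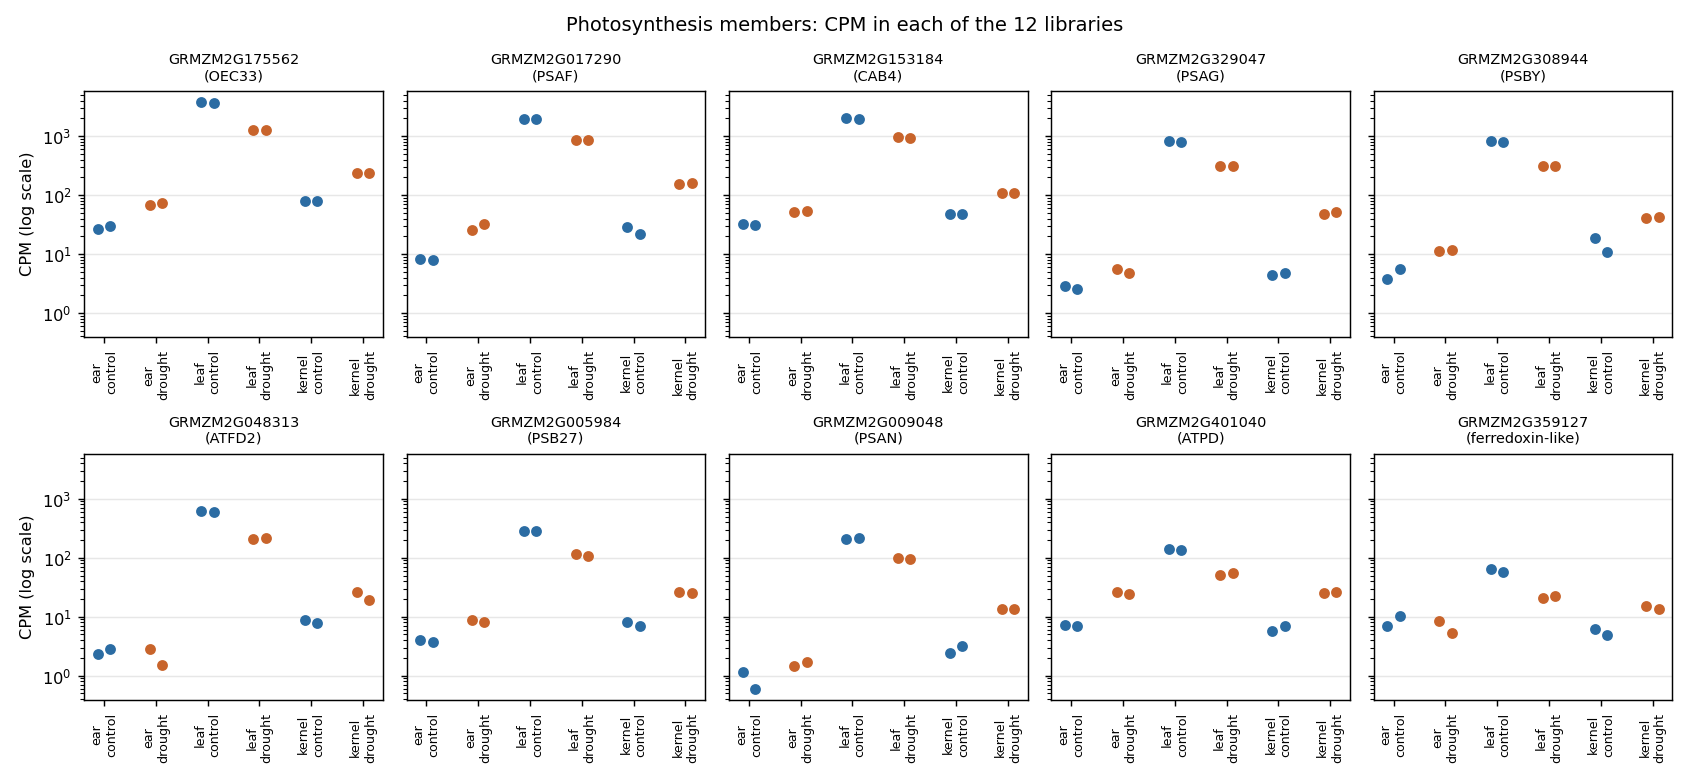
CPM on a log axis in each of the 12 libraries for the 10 photosynthesis members, 1 panel per gene with its Arabidopsis or ferredoxin annotation, blue for control and orange for drought. In every panel the leaf points are the highest, the drought leaf lies below the control leaf and the drought kernel lies above the control kernel.

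These 10 genes were a small portion of the photosynthesis genes of the study, which chose its lists on these same samples. Of 86 listed genes, 71 met the leaf condition and 11 met the kernel condition, while 10 met the opposite kernel condition (lower under drought). In the kernel both drought libraries lay above both controls for 36 of the 86 and below them for 26, and the median log2 ratio of the list was 0.08 in the kernel against -1.87 in the leaf. The kernel increase was thus not shared by the list as a whole. By heading, 3 of 19 photosystem I genes, 3 of 28 photosystem II genes, 1 of 19 antenna genes, 2 of 13 electron transport genes and 1 of 5 ATPase genes were members. All 10 had a nuclear best hit in Arabidopsis, as did 72 of the 86, and none of the 14 genes with an organelle best hit was a member. The 1 listed gene that met the kernel condition without being a member was a ferredoxin gene, GRMZM2G063126, at 0 and 0.190 CPM in the control kernel and 51.6 and 43.2 CPM in the drought kernel. It had no count in the control leaf and 2.30 and 1.41 CPM in the drought leaf.

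Genes of carbon and lipid metabolism included the most abundant members. GRMZM2G015419 (lox10), a lipoxygenase gene known in maize for the synthesis of green leaf volatiles, was the most abundant member in CPM, with 9758 and 9700 CPM in the control leaf and 3018 and 2988 CPM in the drought leaf. In the kernel it had 153 and 133 CPM in controls and 647 and 600 CPM under drought. Leaf was therefore far above kernel in both treatments. GRMZM2G046284, the homolog of FBA2, a chloroplast fructose-bisphosphate aldolase of the Calvin cycle, had the highest leaf level per length (4334 FPKM in controls). It went from 7630 and 7556 CPM to 2380 and 2333 CPM in the leaf and from 69.1 and 55.8 CPM to 190 and 185 CPM in the kernel. It was the only member among 82 listed genes of glycolysis and the TCA cycle, of which 16 met the kernel condition and 56 the opposite. The study chose that list as differentially expressed in these same kernel samples. GRMZM2G129246 (go1, a glycolate oxidase gene of photorespiration, picked out after its values were seen) had 922 and 880 CPM in the control leaf and 363 and 376 CPM in the drought leaf. Its kernel level was 9.09 times higher under drought, with 17.1 and 14.3 CPM in controls and 135 and 150 CPM under drought.

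GRMZM2G155242, the homolog of the myo-inositol-1-phosphate synthase MIPS2, which makes the precursor of inositol and phytate, differed from these in being well expressed in all 3 organs. It had 178 and 189 CPM in the control leaf and 81.9 and 80.4 CPM in the drought leaf, against 68.2 and 73.4 CPM in the control kernel and 184 and 175 CPM in the drought kernel. Leaf was thus above kernel in controls and below it under drought. In CPM its drought kernel reached 97.5% of the control leaf. Division by the TMM factors (0.652 to 0.681 in the control leaf, 1.03 to 1.04 in the drought kernel) would lower this share. In the ear it stood at 170 and 166 CPM in controls and 246 and 246 CPM under drought. The latter was the highest of its group means in CPM, an order not examined with the TMM factors.

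Hormone and stress genes made up the other annotated members. GRMZM2G143235, the homolog of CYP90D1, a cytochrome P450 of brassinosteroid synthesis, had 38.0 and 35.6 CPM in the control leaf, 16.5 and 17.1 CPM in the drought leaf, 6.47 and 8.94 CPM in the control kernel and 32.2 and 29.6 CPM in the drought kernel. GRMZM2G318408, the homolog of BRH1, a RING-H2 gene that responds to brassinosteroid in Arabidopsis, was low in every organ. Its highest values, 35.4 and 34.5 CPM, were in the drought kernel, against 16.8 and 16.5 CPM in the control kernel, and the leaf had 13.2 and 13.7 CPM in controls and 5.32 and 4.70 CPM under drought. These were the brassinosteroid genes of the set. Of 12 genes listed under brassinosteroid signaling for the kernel, 3 met the kernel condition and 8 the opposite. Of 11 listed under gibberellin and brassinosteroid for the leaf, 4 met the leaf condition. The study chose both lists on these same samples.

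GRMZM2G048085, the homolog of SEN1 (DIN1), a dark- and senescence-inducible gene in Arabidopsis, went from 198 and 181 CPM to 59.1 and 58.6 CPM in the leaf and from 6.28 and 5.33 CPM to 21.6 and 23.2 CPM in the kernel. GRMZM2G127361, annotated as a zinc-binding dehydrogenase, had 101 and 95.1 CPM in the control leaf, 29.3 and 18.4 CPM in the drought leaf, 3.81 and 2.85 CPM in the control kernel and 14.6 and 14.3 CPM in the drought kernel. GRMZM2G133434, annotated as a peroxidase, was highest in the drought kernel, at 13.2 and 11.4 CPM against 1.52 and 0.947 CPM in controls. The study listed 288 genes under drought stress response in the kernel, and 3 of them were members, although 142 met the kernel condition. It chose them as differentially expressed in these same kernel samples, so the 142 are not independent of that choice. Among all genes with the required 5 CPM, 12.9% met the kernel condition and 8.75% the leaf condition. Only 13 of the 288 met the leaf condition, so few genes of that list could belong to both.

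GRMZM2G151230, named CNR2 in RefSeq and the homolog of Arabidopsis PCR2 (PLANT CADMIUM RESISTANCE 2), was nearly undetected outside the leaf of watered plants. It had 75.6 and 76.1 CPM in the control leaf and 28.8 and 28.2 CPM in the drought leaf, 1 count in each control kernel library and 23.5 and 18.4 CPM in the drought kernel. On its summed kernel counts, 2 against 216, the ratio was 110 with an exact 95% interval of 30.1 to 915, which covers counting error only. The same holds for GRMZM2G079559, with 5 against 130 kernel counts and a ratio of 26.5 (11.1 to 83.0), and for GRMZM2G163905, with 4 against 65 counts and a ratio of 16.6 (6.17 to 62.6). These were the 3 members whose control kernel libraries all held at most 3 counts. The choice already required a kernel ratio of at least 2, so the 3 intervals are descriptions and do not test the difference.

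In 15 members the drought kernel was the highest of the 6 groups. GRMZM2G447785 was the highest of all members in the drought kernel, with 774 FPKM. It had 140 and 126 CPM in the control kernel, near its 126 and 123 CPM in the control leaf, and 724 and 737 CPM in the drought kernel against 41.8 and 38.9 CPM in the drought leaf. In CPM the organs were about equal for this gene in watered plants, and the kernel was far above the leaf under drought. Division by the TMM factors (0.652 to 0.681 in the control leaf, 1.17 to 1.20 in the control kernel) would place the control leaf above the control kernel. GRMZM2G134264, named Natterin-4 in RefSeq, had the largest kernel ratio of all, 513 times, with 8 and 5 counts in the control kernel (1.60 and 0.951 CPM) and 671 and 638 CPM under drought. Its leaf level was 95.1 and 104 CPM in controls and 43.9 and 46.9 CPM under drought.

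GRMZM2G056500, which has no annotation in the sources used here and was picked out after its values were seen, followed a like course at a lower level. It had 4 and 2 counts in the control kernel (0.682 and 0.380 CPM) and 159 and 167 CPM in the drought kernel, with 38.2 and 30.7 CPM in the control leaf and 14.8 and 14.4 CPM in the drought leaf. By contrast GRMZM2G012391 and GRMZM2G036286 were expressed in all groups. GRMZM2G012391 had 130 and 117 CPM in the control kernel and 341 and 345 CPM in the drought kernel, and 178 and 185 CPM against 33.4 and 30.8 CPM in the leaf. The phytochrome gene GRMZM2G092174 (PhyB2), a red light receptor, was among the least abundant of the 15, with 5.48 and 6.17 CPM in the control leaf, 2.35 and 0.804 CPM in the drought leaf, 4.94 and 9.28 CPM in the control kernel and 20.3 and 20.1 CPM in the drought kernel.

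**Figure D4:**
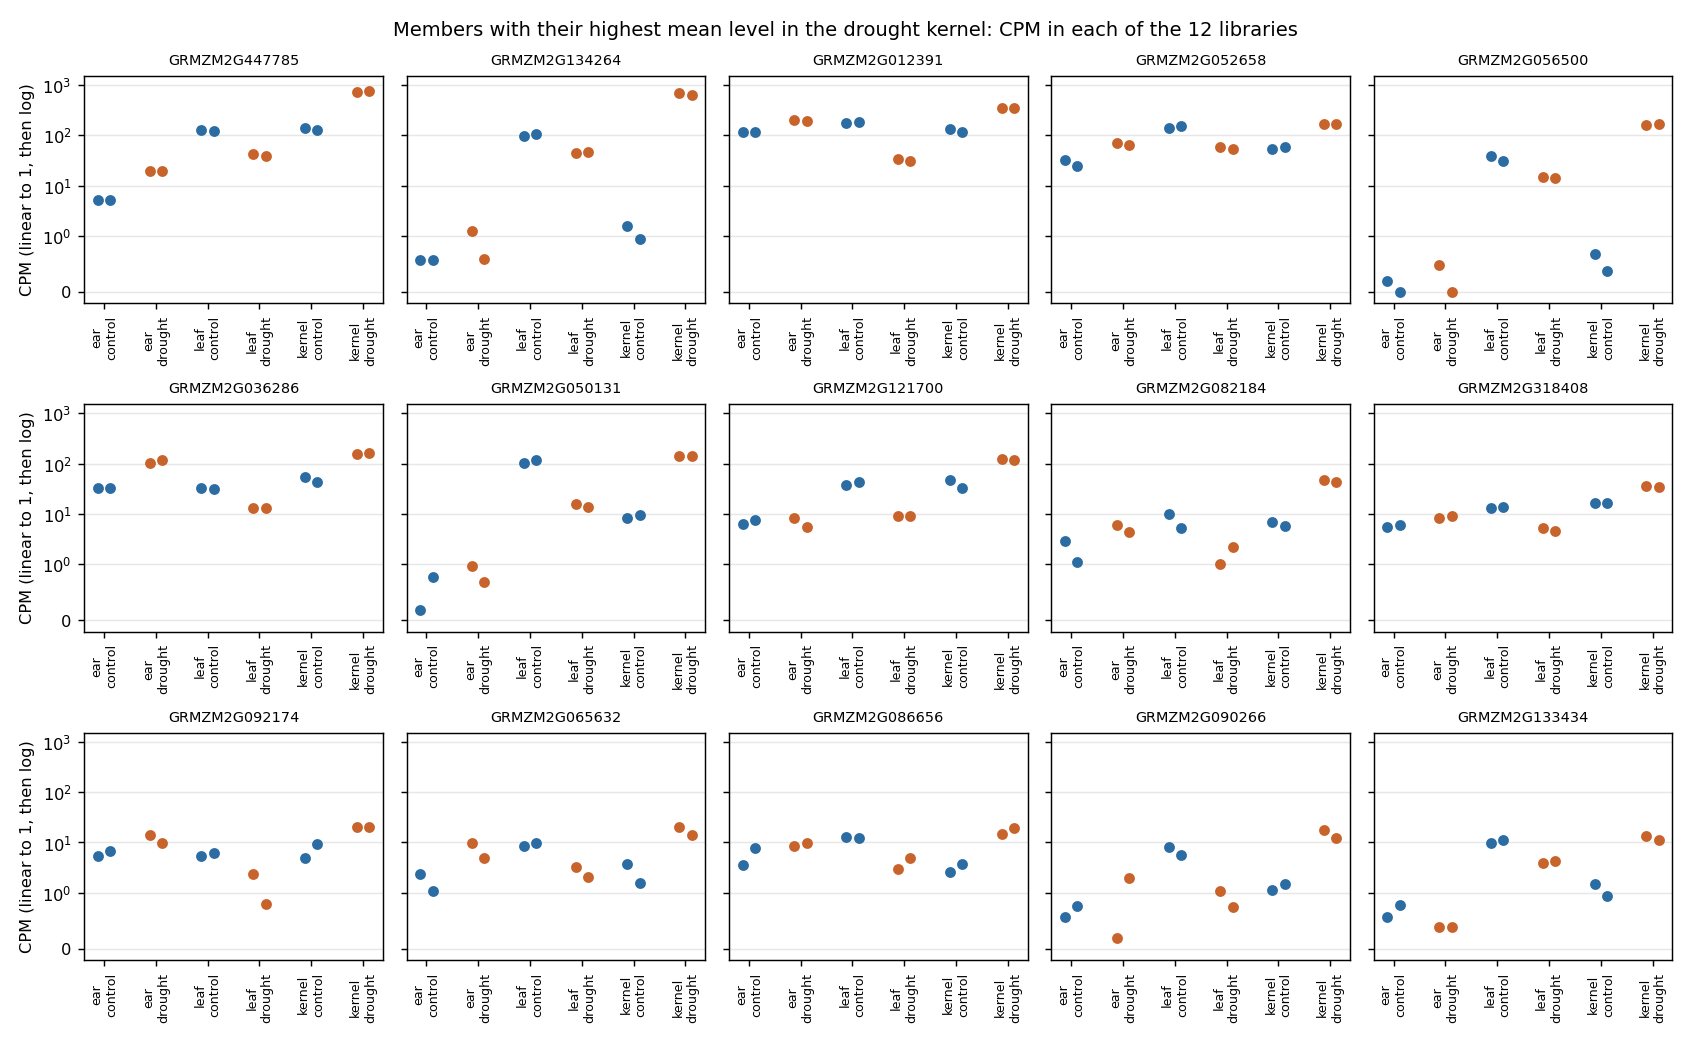
CPM in each of the 12 libraries for the 15 members whose highest group mean was the drought kernel, 1 panel per gene, on an axis that is linear up to 1 CPM and logarithmic above, blue for control and orange for drought. GRMZM2G134264 and GRMZM2G056500 lie near 1 CPM or below in the control kernel and above 150 CPM in the drought kernel, while genes such as GRMZM2G012391 are expressed in all groups.

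GRMZM2G134264 lies close to further members. In the gene order of the RefSeq annotation it is separated by 3 genes from GRMZM2G050131, which also carries the name Natterin-4, and GRMZM2G114945 follows directly. GRMZM2G050131 had 104 and 117 CPM in the control leaf, 15.9 and 14.1 CPM in the drought leaf, 8.41 and 9.50 CPM in the control kernel and 143 and 139 CPM in the drought kernel. GRMZM2G114945 had 55.8 and 42.4 CPM against 4.85 and 8.28 CPM in the leaf and 5.87 and 4.19 CPM against 45.4 and 47.0 CPM in the kernel. Whether members lie this close more often than other genes was not tested. The 3 neighbours shared the pattern because the choice required it of all members, at ratios that differed between them. A gene between the first pair, GRMZM2G090028, had 1.54 and 3.87 CPM in the control leaf, 4.42 and 3.77 CPM in the drought leaf, 12.4 and 15.3 CPM in the control kernel and 6.97 and 9.26 CPM in the drought kernel, and did not share it. How reads were divided between similar copies is not given in the sources used here, so the separate levels of GRMZM2G134264 and GRMZM2G050131 are uncertain.

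The members that stood farthest inside both conditions were mostly genes without a functional name. GRMZM2G084116 had the largest leaf ratio, 22.0 times, with 47.5 and 46.4 CPM in the control leaf and 2.57 and 1.69 CPM in the drought leaf, and 1.14 and 0.951 CPM against 10.5 and 9.10 CPM in the kernel. GRMZM2G165387 had 67.6 and 73.2 CPM against 9.39 and 7.51 CPM in the leaf and 1.71 and 1.14 CPM against 16.8 and 15.8 CPM in the kernel. GRMZM2G353024 was the abundant gene of this set, with 1103 and 1130 CPM against 181 and 187 CPM in the leaf and 13.3 and 12.2 CPM against 102 and 110 CPM in the kernel. Both of its organs thus differed by more than 6 times between treatments. In GRMZM2G170742 the leaf went from 47.0 and 49.6 CPM to 2.20 and 4.88 CPM, and the kernel from 0.381 and 1.33 CPM to 8.94 and 7.75 CPM. In CPM, GRMZM2G050076 had nearly as much in the drought kernel (79.3 and 78.3) as in the control leaf (98.7 and 92.0). It had 13.4 and 15.7 CPM in the control kernel and 19.1 and 20.3 CPM in the drought leaf. GRMZM2G039665 reached only 7.58 and 9.61 CPM in the drought kernel from 0 and 0.761 CPM, beside 215 and 208 CPM in the control leaf and 28.4 and 49.4 CPM in the drought leaf. These genes cover the range from a small kernel gain to a nearly complete exchange of level in CPM. GRMZM2G090266 was the least abundant of them, at 8.07 and 5.54 CPM in the control leaf, 1.10 and 0.752 CPM in the drought leaf, 1.14 and 1.52 CPM in the control kernel and 17.3 and 12.2 CPM in the drought kernel. Of the unnamed genes that were abundant in both organs, GRMZM2G096695 had 1833 and 1748 CPM against 660 and 655 CPM in the leaf and 106 and 89.4 CPM against 314 and 317 CPM in the kernel.

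At the edge of the choice, GRMZM2G067122 and GRMZM2G402092 were taken with a leaf ratio of 2.00 between the nearest libraries, and GRMZM2G161306 with a kernel ratio of 2.01. GRMZM2G013783 was left out with a kernel ratio of 1.98, as was GRMZM2G055204, the homolog of Arabidopsis RAP2.4 (related to AP2 4), with 1.99. GRMZM2G069024, annotated as beta glucosidase 11, was left out with a leaf ratio of 1.99. Genes on either side of the edge therefore had nearly the same values.

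In the V9 ear, which the choice did not use, 20 of the 96 members (20.8%) were upregulated DEGs (differentially expressed genes, with an adjusted p under 0.001 by the edgeR quasi-likelihood test and a log2 fold change of 1 or more in either direction) and 0 were downregulated. Over all 26089 genes tested, 1030 (3.95%) were upregulated and 858 (3.29%) were downregulated. The members' share was close to that of the genes that met the kernel condition alone, of which 498 of 2183 (22.8%) were upregulated and 0.687% downregulated in the ear, and above that of the genes that met the leaf condition alone, with 56 of 1206 (4.64%) upregulated and 3.15% downregulated. The ear increase was thus not particular to the members among genes that were higher in the drought kernel. The median log2 fold change was 0.64 for the members, 0.67 for the genes with the kernel condition alone, 0.00 for those with the leaf condition alone and -0.01 for all genes.

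All 96 members passed the filter on low counts, through any of the 6 groups. At an adjusted p under 0.05 without a fold limit, 41 members were higher and 5 lower in the ear, beside 17.1% and 19.1% of all genes. DESeq2 called 19 of the 20 and also 0 lower. With the ear libraries fitted alone, which leaves the leaf and kernel libraries out of the spread, 19 members were upregulated and 0 downregulated. Both drought ear libraries lay above both controls for 62 members and below them for 10, beside 38.5% and 28.4% of all genes. Ear levels were low, with a median of 4.68 CPM in controls and 7.87 CPM under drought, and 14 members had at most 3 counts in each control ear library. In sum the members had 1346 and 1361 CPM in the control ear and 2192 and 2192 CPM in the drought ear. The number of upregulated members fell to 13 without replicate 1 of the control ear, and 11 of the 20 were called with each ear library left out in turn.

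**Figure D5:**
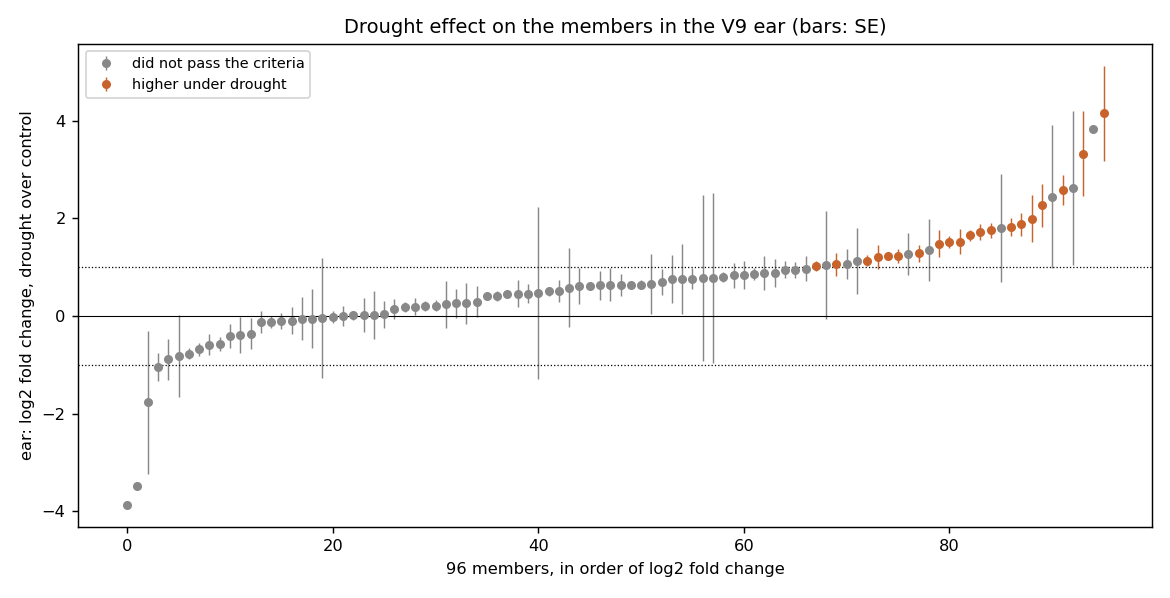
Log2 fold change of drought over control in the V9 ear for the 96 members, in increasing order, with standard errors as bars and dotted lines at the fold limits. The 20 members upregulated in the ear, in orange, range from 1.02 to 4.15, no member passed the criteria below 0, and 3 members with an ear group at 0 counts have no bar.

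Of the 10 photosynthesis members, 5 were upregulated in the ear and 0 downregulated, with a median log2 fold change of 0.95. The PSAF homolog GRMZM2G017290 had 8.31 and 7.85 CPM in the control ear and 25.3 and 32.8 CPM under drought, a log2 fold change of 1.75 ± 0.16 (SE, n = 2 per group, edgeR adjusted p = 3.0e-10). The ATPD homolog GRMZM2G401040 went from 7.17 and 7.09 CPM to 26.2 and 24.03 CPM (1.72 ± 0.17, edgeR adjusted p = 1.8e-09), and the PSBO2 homolog GRMZM2G175562 from 26.2 and 30.3 CPM to 68.1 and 73.7 CPM (1.23 ± 0.08, edgeR adjusted p = 7.7e-13). Both drought ear libraries lay above both controls in these 3 genes and in the homologs of PSBY, PSB27, PSAG, PSAN and LHCA4. This held for 38.5% of all genes tested, and the groups of the ferredoxin members overlapped. The homologs of PSBY (GRMZM2G308944, 1.21 ± 0.25) and PSB27 (GRMZM2G005984, 1.06 ± 0.23) passed by less. The call of GRMZM2G005984 was lost with any ear library left out and that of GRMZM2G308944 without replicate 1 of the control ear or either drought ear library, so that each of these 3 omissions left 3 of the 5 calls. The LHCA4 homolog GRMZM2G153184 had an adjusted p of 5.5e-07 by edgeR with a log2 fold change of 0.62, under the fold limit, with 32.8 and 31.2 CPM in controls and 51.8 and 53.2 CPM under drought. Both ferredoxin members had values below 0 without passing, -0.40 for GRMZM2G048313 and -0.41 for GRMZM2G359127. Over the photosynthesis list of the study, 27 of the 82 genes tested in the ear were upregulated and 1 downregulated, with 10 of 19 antenna genes and 8 of 19 photosystem I genes among the former and a median log2 fold change of 0.67. The list includes the members, and the difference between them and the rest of it was not tested.

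The largest ear increase was that of GRMZM2G151230 (CNR2), with 1 count in each control ear library and 3.13 and 5.08 CPM under drought. Its fitted log2 fold change was 4.15 ± 0.97 (edgeR adjusted p = 2.7e-06), and its summed counts, 2 against 42, gave a ratio of 21.6 with an exact interval of 5.61 to 184. It is the 1 member of 7 genes listed under ROS signaling, of which 6 were upregulated in the ear, beside 3.95% of all genes tested. The study listed these 7 as differentially expressed in these same samples, the ear included, so the count of 6 is not independent of that choice. GRMZM2G084116 followed with 3.33 ± 0.87 (edgeR adjusted p = 0.00011), on 3 against 34 counts, a ratio of 11.6 (3.66 to 59.3), and did not pass without replicate 1 of the control ear (edgeR adjusted p = 0.0062) or replicate 1 of the drought ear (0.0035). GRMZM2G154505 had more counts behind it, with 1.93 and 1.55 CPM in the control ear and 11.4 and 10.8 CPM under drought, a log2 fold change of 2.58 ± 0.30 (edgeR adjusted p = 4.2e-09). In the other organs it had 193 and 195 CPM against 71.8 and 71.2 CPM in the leaf and 20.8 and 18.6 CPM against 83.6 and 83.7 CPM in the kernel. Of the members that peaked in the drought kernel, GRMZM2G447785 was upregulated in the ear at 19.5 and 19.5 CPM against 5.09 and 5.18 CPM (1.83 ± 0.18, edgeR adjusted p = 1.6e-09). GRMZM2G036286 was upregulated from 32.6 and 32.6 CPM to 101 and 118 CPM (1.65 ± 0.11, edgeR adjusted p = 2.4e-12).

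Several members with large leaf and kernel differences did not pass in the ear. The FBA2 homolog GRMZM2G046284 had 18.8 and 17.7 CPM in the control ear and 18.1 and 20.6 CPM under drought, a log2 fold change of -0.02 ± 0.12, and lox10 (GRMZM2G015419) had 20.6 and 24.3 CPM against 26.8 and 28.0 CPM, a log2 fold change of 0.19 ± 0.10. For these abundant genes the standard errors were well under the fold limit. GRMZM2G134264 stood at 0.566 and 0.575 CPM in the control ear and 1.28 and 0.586 CPM under drought, and GRMZM2G050131 at 0.189 and 0.767 CPM against 0.977 and 0.684 CPM, levels of a few counts at which a small difference was not detectable. The MIPS2 homolog GRMZM2G155242 had a log2 fold change of 0.45 ± 0.07 (edgeR adjusted p = 9.0e-06), under the fold limit, and go1 (GRMZM2G129246) had 1.07 ± 0.31 (edgeR adjusted p = 0.012), above it but short of the p criterion. Of the 22 members with values below 0, 5 had an adjusted p under 0.05. GRMZM2G130348 (-0.77 ± 0.11, edgeR adjusted p = 2.7e-06) and GRMZM2G089528 (-0.68 ± 0.13, edgeR adjusted p = 0.00019) were lower in the drought ear with changes under the fold limit. GRMZM2G132431 (-1.05 ± 0.29, edgeR adjusted p = 0.0039) passed the fold limit but not the p criterion, and GRMZM2G075502 (-0.58) and GRMZM2G145962 (-0.59) passed neither. GRMZM2G130348 had 55.5 and 64.0 CPM in the control ear and 36.9 and 37.7 CPM under drought.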

How the data were processed

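The authors deposited unnormalized expected counts (estimated reads per gene) and FPKM, in which these estimates are divided by gene length and library size, from poly(A)-selected RNA read on an Illumina instrument. The aligner, counter and annotation are not given in the sources used here. Genes absent from a library's list were given 0. CPM used the sum of unrounded expected counts. For the ear test, counts were rounded, scaled by TMM and modelled in edgeR 4.0.16 (R 4.3.3), with 1 model of 6 groups over the 26089 genes kept by filterByExpr, with Benjamini-Hochberg adjustment over them. The fit was run on 1 simulated ear comparison, in which 200 of 200 changed genes were recovered with 0 false calls. The outcome was not split by level, so it does not show how well changes at the members' low ear counts are found. Intervals are exact binomial. Alternatives used DESeq2 1.42.0 and limma 3.58.1. Named genes are the members annotated by the study, the 10 farthest inside both conditions, the 5 highest in FPKM in the control leaf and in the drought kernel, the 3 largest ear changes in each direction among DEGs and the 3 on each side of the edge of the rule. Other genes were named after their values were seen. The members and lists were chosen with earlier results of these data known.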

Additional observations from a re-analysis of the deposited data

How the results depend on the processing

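Depth limits the ear comparison, since 14 members had at most 3 counts in each control ear library. The number of members upregulated in the ear, 20, became 6 when tested against a log2 fold change of 1, 41 at an adjusted p under 0.05 without a fold limit, 36 under the rule with TMM-scaled CPM (for the ear results this setting was added after seeing the data) and 13 to 18 with an ear library left out. Downregulated members, 0 otherwise, became 5 at an adjusted p under 0.05 and 1 with the TMM-scaled rule. The median ear log2 fold change, 0.64, became 0.73 with library size scaling, 0.68 and 0.46 with limma on log2(FPKM + 0.1) and log2(FPKM + 1), 0.50 with the TMM-scaled rule and 0.56 to 0.67 with a library left out, and it stayed at 0.64 with the 3 members that had an ear group at 0 counts left out or set to their bound. The rule took 10 genes at 4 times in place of 2 times, 193 with TMM-scaled CPM, 91 with FPKM, 78 at 10 CPM, 125 at 1 CPM and 102 to 123 with a library left out. Of 36 named members, 31 kept their ear call in the 12 alternatives fitted gene by gene, which leave out the 2 changes of threshold. The call of GRMZM2G084116 (adjusted p = 0.0029) and that of GRMZM2G308944 (0.0018) were lost with limma on log2(FPKM + 0.1). The ear value of 7 named members, none of them called, changed sign in some alternative, as GRMZM2G090266 did from 0.58 to -1.71 without replicate 2 of the drought ear. No called value of the named members changed sign. The cause of the changes was not tested. Same-numbered libraries did not deviate together (correlations of 0.02 in the ear, -0.02 in the leaf and 0.03 in the kernel), and with a replicate block 19 members were upregulated, with a median of 0.64.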
